A study of Mus musculus with 4 samples.

Results

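The AP-1 transcription factor genes comprised 10 of 21883 protein-coding genes of the RefSeq annotation, namely Fos, Fosb, Fosl1, Fosl2, Jun, Junb, Jund, Atf3, Batf and Batf3. Their open chromatin was described by every peak in or within 100 kb of these genes. Overlapping peaks of the 4 libraries were merged, which gave 341 sites of 170558 sites on the chromosomes. Of these sites, 108 had one of the 10 genes as the nearest protein-coding gene, and 21 lay in more than 1 window because Atf3 and Batf3 are neighbours. The cells were articular chondrocytes from the knees of C57BL/6 mice aged 0 to 4 days, kept in culture with fetal bovine serum. Passage 0 (P0) cells had been in culture for less than a day, and passage 8 (P8) cells had been passaged 8 times, each time after the cells had doubled in number. The labels name no transgene or drug for either group, and the groups differed in passage and hence in time on plastic, which cannot be told apart. ATAC-seq was performed on 2 libraries per passage. It uses the Tn5 transposase to tag open DNA, so that many tags at a position mark accessible chromatin. The sources did not say whether the 2 libraries of a passage came from separate mice or cultures, so the spread between them may be technical.

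AP-1 is a dimer of basic leucine zipper proteins. Proteins of the Fos family pair with proteins of the Jun family, Jun proteins also pair with each other, and the dimers bind a short palindromic site in promoters and enhancers. Fos, Fosb, Jun and Junb are classical immediate-early genes, whose transcription starts within minutes of serum, growth factors, cytokines or stress, downstream of MAP kinases. Fosl1 and Fosl2 encode the Fos relatives Fra-1 and Fra-2, and Jund is the Jun gene with the steadiest expression in many cells. Atf3 is a stress-induced member of the ATF/CREB family, and Batf and Batf3 are partners of Jun proteins best known from lymphocytes and dendritic cells. In cartilage, AP-1 is known for driving matrix metalloproteinase genes and, through Fosl2, for a role in chondrocyte differentiation.

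The sequences just before the start sites are shown for Fos, Fosb and Junb, whose start regions differed most in favour of P8, and for Jun and Atf3 beside them. They are the 250 bases before the start in RefSeq for GRCm38.p6, read along the gene, with matches to the searched motifs in capitals.
Fos, chr12:85473640-85473889, plus strand: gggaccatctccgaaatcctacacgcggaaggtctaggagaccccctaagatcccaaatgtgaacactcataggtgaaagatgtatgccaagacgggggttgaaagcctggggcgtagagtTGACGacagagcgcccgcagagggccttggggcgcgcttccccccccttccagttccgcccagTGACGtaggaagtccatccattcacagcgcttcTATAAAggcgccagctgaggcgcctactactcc
Fosb, chr7:19310046-19310295, minus strand: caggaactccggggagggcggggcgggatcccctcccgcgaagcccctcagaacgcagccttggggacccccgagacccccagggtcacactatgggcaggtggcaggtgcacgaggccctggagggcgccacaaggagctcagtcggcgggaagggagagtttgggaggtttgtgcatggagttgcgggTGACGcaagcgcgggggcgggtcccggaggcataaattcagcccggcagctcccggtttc
Junb, chr8:84978749-84978998, minus strand: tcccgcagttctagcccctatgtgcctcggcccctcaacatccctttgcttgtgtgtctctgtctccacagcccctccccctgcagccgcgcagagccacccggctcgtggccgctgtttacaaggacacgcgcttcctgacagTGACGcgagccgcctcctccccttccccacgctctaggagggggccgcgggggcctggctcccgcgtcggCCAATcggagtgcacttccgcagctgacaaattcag
Jun, chr4:95052223-95052472, minus strand: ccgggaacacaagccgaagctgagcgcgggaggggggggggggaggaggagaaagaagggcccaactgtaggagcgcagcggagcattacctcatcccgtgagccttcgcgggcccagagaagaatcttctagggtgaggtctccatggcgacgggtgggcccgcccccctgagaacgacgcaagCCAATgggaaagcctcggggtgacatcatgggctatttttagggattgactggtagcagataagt
Atf3, chr1:191183334-191183583, minus strand: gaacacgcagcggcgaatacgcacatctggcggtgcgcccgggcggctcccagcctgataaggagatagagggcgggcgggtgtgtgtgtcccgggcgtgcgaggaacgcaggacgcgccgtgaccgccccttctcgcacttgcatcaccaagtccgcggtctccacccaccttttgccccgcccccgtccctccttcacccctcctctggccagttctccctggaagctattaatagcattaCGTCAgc
The motifs were searched on both strands. TGACG is a half-site of the CRE, the element bound by CREB and ATF proteins, and is part of the full CRE, TGACGTCA. The AP-1 site is TGACTCA. The CArG box of the serum response element, the CCAAT box and the TATA box, TATAAA, were also searched. TGACG occurred in 5 of 9 members with a listed promoter, against 17.9% of 27025 promoters of this length. Counted to the first base of the match, Fos held it at positions -129 and -66 from the start, Junb at -106, Fosb at -60 and Atf3 at -7, and Batf, whose sequence is not shown, at -98. TATAAA was found at Fos only among the 9, at position -33, and in 13% of all promoters. The CCAAT box was found at Jun, at position -65, and at Junb, at position -36, and in 34.5% of all promoters. None of the 9 windows held the AP-1 site, the full CRE or the CArG box, which occurred in 4.43, 1.62 and 1.4% of all promoters. A match is a description of the letters in this window and not a measured binding site. Variants outside the searched patterns and bases further from the start were not searched. A missing match therefore does not show that a gene lacks the element.

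The caller's background, a measure of depth, was 194 tags per 10 kb for library A and 162 for library B at P0, and 140 and 134 at P8, so that both P8 libraries were shallower. Libraries are called A and B because the peak names carry no replicate number. Chondrocyte markers had a peak within 1 kb of a start for 8 of 8 genes in both P0 libraries and for 7 of 8 in both P8 libraries. Their median pileup, the number of tags stacked at the summit divided by the library's background, was 40.3 and 45.6 at P0, compared with 21.5 and 23.5 at P8. The fibroblast markers were open at P0 already, with 5 of 5 genes in both P0 libraries, and with 4 and 3 of 5 in the P8 libraries. Their median pileup over background overlapped between passages, with 19.1 and 12.7 at P0 and 14.7 and 19.4 at P8. Of the macrophage markers, Adgre1, Csf1r and Ptprc had no peak at the start in any library, and 2 of 5 genes had one at P0 and 1 of 5 at P8. Cdh5 and Pecam1 of 4 endothelial markers, Myog and Pax7 of 3 muscle markers and Krt14 of 3 epithelial markers also lacked one in every library. However, 2 of 4 endothelial and 1 of 3 muscle markers had a peak at the start in each library. Of the epithelial markers, 2 of 3 had one in both P0 libraries and 1 of 3 in both P8 libraries. The part of cell composition in the results below was not tested, and in bulk samples a change in the share of cells cannot be told apart from a change within cells.

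Sites open in both passages were the largest class around the AP-1 genes. Of the 341 sites, 171 (50.1%) held a peak in all 4 libraries, against 32.4% of all sites. This share was 35.8 to 42.3% around the gene lists described below. Around the AP-1 genes, both P0 libraries but no P8 library held a peak at 31 sites (9.09%), against 17.1% of all sites. The reverse pattern, both P8 libraries only, was found at 9 sites (2.64%), against 1.82% of all sites. Leaving out a library relaxes the pattern, so these counts can then only stay the same or rise. Without P8 library A or B there were 27 or 20 P8-only sites, and without P0 library A or B there were 47 or 70 P0-only sites, while without P8 library B the P0-only sites numbered 54. With peaks of a −log10 p of at least 10, there were 3 P8-only sites and 38 P0-only sites. Shares over all sites were not computed without a library or at this cut-off. The other 130 sites had mixed patterns, and 84 of them were held by 1 library only, 39 of these by P0 library A, the deepest. At P0 the windows held 308 (library A) and 261 (library B) peaks, compared with 249 and 265 at P8. This gave means of 284.5 ± 33.2 (SD, n = 2) and 257 ± 11.3 (SD, n = 2), a ratio of 1.11 ± 0.138, against 1.41 over all peaks. The libraries of both passages overlapped in this count (exact two-sided permutation test, p = 0.667, n = 2 per passage), and a design of 2 against 2 cannot go below 0.33.

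Per gene, the number of sites lay between 24 around Jun and 45 around Fosb and Jund. The number of peaks was lower in both P8 libraries than in both P0 libraries around 3 of 10 members, against 56.1% of all genes, and higher in both around 0, against 3.35% of all genes. Atf3 had the most sites open in both P0 libraries only, with 6, and Fosb and Fosl1 followed with 5 each. Fos and Junb had the most sites open in both P8 libraries only, with 2 each. Jun, Jund and Batf3 had none. Both P8-only sites around Fos had Fos as the nearest gene, whereas the others lay nearer to other genes. The windows differed in this respect, since those of Fos and Jun each held 1 other protein-coding gene and that of Junb held 17 others.

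**Figure D1:**
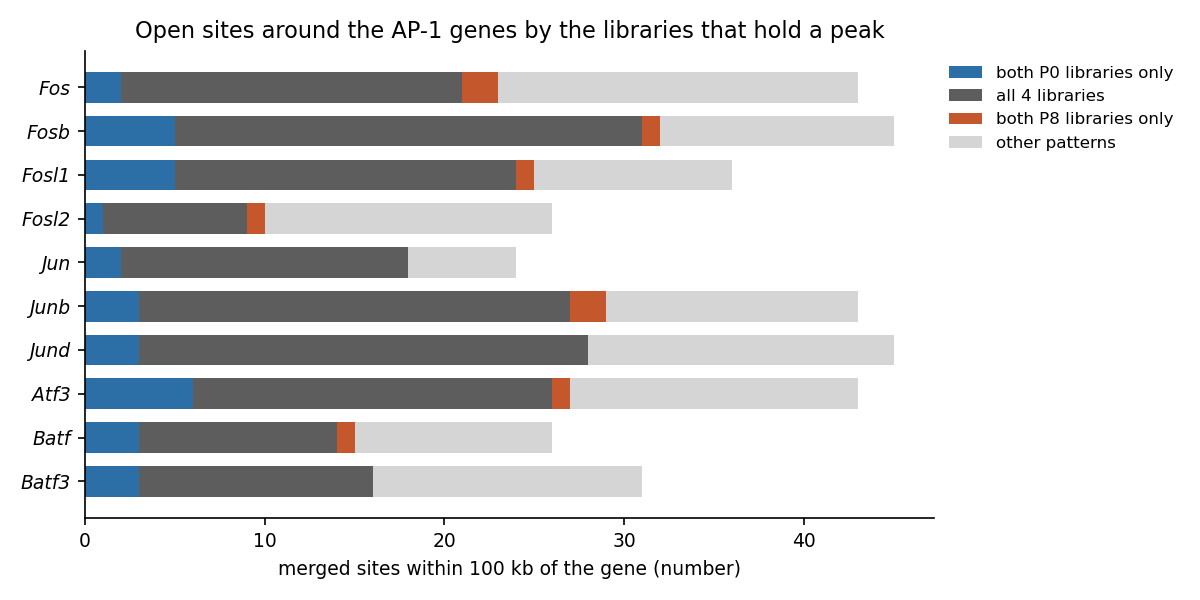
Number of merged sites within 100 kb of each gene (x axis) for the 10 genes (y axis), split by the libraries that held a peak. Sites held by all 4 libraries form the longest named segment at every gene, and sites held by both P8 libraries only number between 0 and 2.

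Because a shallower library calls fewer peaks, each site of 1 passage was asked whether a summit of the same height relative to depth would pass the caller's p in both libraries of the other passage at the background found there. It would at 29 of 31 P0-only sites, against 97% of such sites in the genome, and at 9 of 9 P8-only sites, against 99.5%. The sites that failed were the P0-only site at the start of Fosb and the P0-only site 6081 bp past the start of Fos. Both failed in P8 library B only, with a −log10 p of 2.75 at Fosb and 2.20 at Fos against a lowest reported value of 3.32 there. In P8 library A both would have passed, with 3.49 and 3.67 against a lowest value of 3.38.

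The starts of most members were open in both passages. A peak within 1 kb of a start was present in all 4 libraries for 8 of 10 members, against 59.8% of all genes. Batf had 18 and 12 tags at its start in the P0 libraries, none called in P8 library A, and 10 tags in library B of P8. Fosb had one in both P0 libraries only, with 35 and 33 tags at chr7:19310021-19310454. The local background used for the comparison at equal height was 12.4 and 13.9 times the library's background in P8 libraries A and B. At P0 it was 7.13 and 6.22 times.

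This local background is a measurement in its own right. The fold enrichment that the authors deposited divides the pileup at a summit by a local background, and this background, recovered from each peak, counts the tags in the 10 kb around the summit. Divided by the background of the library, it gives a 10 kb tag density as a multiple of that library's background. It was read at the site nearest to the start, within 5 kb, that was open in all 4 libraries, which 9 members had. The site at the start of Batf lacked a peak in P8 library A. Among 14629 genes with such a start region, the density was lower in both P8 libraries than in both P0 libraries at 74.5% and higher at 6.71%, and the median change from P0 to P8 was -0.29 on the log2 scale. Of the 9 members, 4 were higher in density at P8 (Fos, Fosb, Junb, Jund), 2 were lower (Atf3, Batf3) and 3 overlapped (Fosl1, Fosl2, Jun). At these 9 regions fold enrichment was lower in both P8 libraries at 8, higher at 0 and overlapped at Fosl2. Pileup over background was lower at 4 and higher at 1. Over all sites open in all 4 libraries, these shares were 49.9% and 11.6% for fold enrichment and 50.3% and 15.5% for pileup. Those sites are not limited to gene starts, and the shares over start regions alone were not computed. The 10 kb tag density was chosen after values of these genes had been seen.

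Fos, the founding member of the family, had a density at its start (chr12:85473372-85474166) of 7.56 (library A) and 5.95 (library B) at P0, compared with 9.65 and 12.3 at P8. Below, the value of library A stands first throughout. Both P8 libraries lay above both P0 libraries, and the means differed 1.63-fold (6.75 ± 1.14 and 10.99 ± 1.89, SD, n = 2 each). From the top of the 14629 genes, this change ranked 45. The pileup over background was 33.9 and 28.7 at P0, compared with 35.2 and 39.8 at P8, also without overlap. Fold enrichment moved the other way, from 4.19 and 4.35 to 3.40 and 3.06, since its denominator was larger at P8.

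Fosb encodes a Fos protein that is also known in a truncated, long-lived form. Its start region lay inside the gene, 1093 bp from the start (chr7:19307496-19308952), with densities of 8.16 and 6.84 at P0 and 13.2 and 14.9 at P8. The 1.87-fold difference ranked 19 of 14629. At the summit itself the pileup over background was 48.0 and 53.2 at P0, compared with 44.0 and 46.0 at P8, so that the peak was slightly lower while its surroundings held more tags. The fold enrichment of 5.50 and 7.03 at P0 and 3.17 and 2.95 at P8 (log2 ratio -1.03) differed more than at any other shared site around Fosb whose passages did not overlap.

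Junb, a Jun protein with weaker activation of AP-1 sites than Jun, had densities of 10.96 and 9.73 at P0 and 13.8 and 15.5 at P8 at its start (chr8:84978488-84978957), a 1.42-fold difference that ranked 125. Its pileup over background, 36.0 and 42.2 at P0, was 38.1 and 39.8 at P8, with the P8 values inside the P0 range. Jund was higher by a small margin, with 8.18 and 7.45 at P0 and 8.28 and 8.79 at P8 (1.09-fold), at a site 705 bp inside the gene. Jun, whose product is the most potent activator among the Jun proteins, was dense in both passages, with 13.3 and 12.9 at P0 and 12.7 and 14.7 at P8. Its level exceeded that of 99.9% of genes at P0 and of 99.8% at P8, and the passages overlapped.

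The Fos relatives did not separate. Fosl2 had densities of 10.2 and 8.96 at P0 and 8.40 and 10.2 at P8 (chr5:32135027-32136110). Fosl1, far less dense, had 2.75 and 2.28 at P0 and 2.61 and 3.12 at P8 (chr19:5447482-5448026). Atf3 and Batf3 differed in the opposite sense from Fos. The density at the start of Atf3 (chr1:191183014-191183872) was 6.09 and 5.49 at P0, compared with 4.51 and 5.15 at P8, a ratio of 0.835, close to that of the median gene. Batf3 (chr1:191097254-191098550) had 3.07 and 2.72 at P0 and 1.71 and 1.89 at P8, a ratio of 0.622, and its pileup over background was 24.0 and 23.6 at P0, compared with 13.7 and 12.3 at P8. Batf3 thus stood at percentile 4.78 of the change over all genes, and Fosb at percentile 99.9.

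In order of the mean density at P0, Jun stood first (13.1 ± 0.275, SD, n = 2), followed by Junb, Fosl2, Jund, Fosb, Fos, Atf3, Batf3 and Fosl1. Neighbours in this order overlapped except at 3 steps, Jun to Junb, Fosl2 to Jund and Atf3 to Batf3. At P8, Junb (14.6 ± 1.22) and Fosb (14.1 ± 1.19) stood first and second and Jun (13.7 ± 1.37) the third, with ranges that overlapped among these 3. Fos followed with 10.99 ± 1.89, which overlapped Fosl2.

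**Figure D2:**
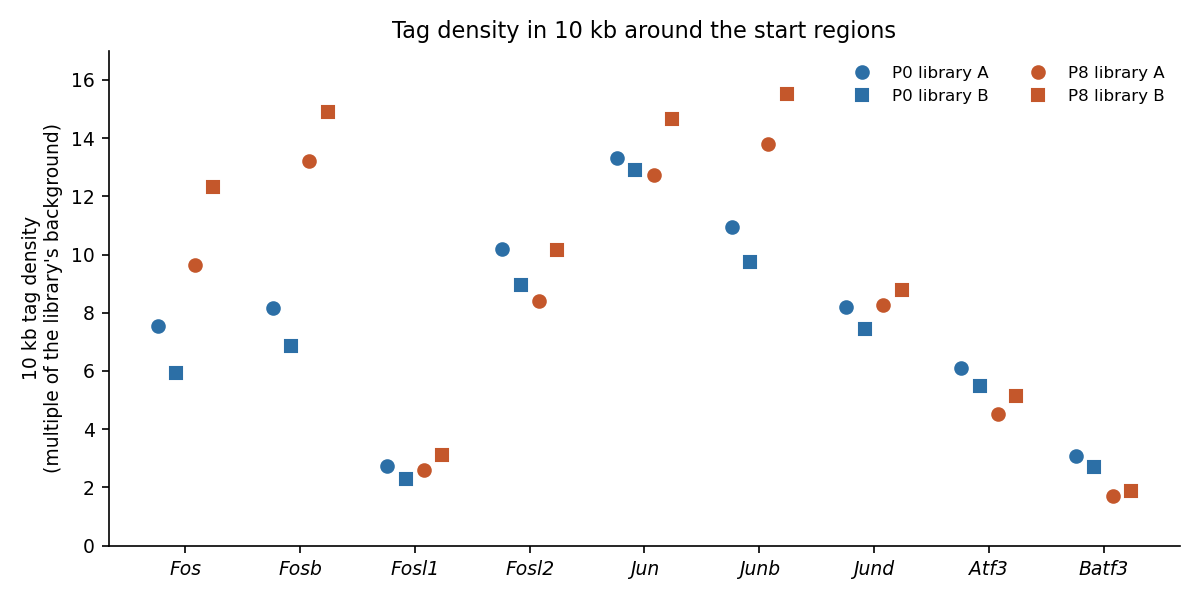
Tag density in 10 kb around the start region (y axis, multiple of the library's background) for 9 AP-1 genes (x axis), with 1 point per library. Both P8 points lie above both P0 points at Fos, Fosb, Junb and Jund, and below them at Atf3 and Batf3.

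**Figure D3:**
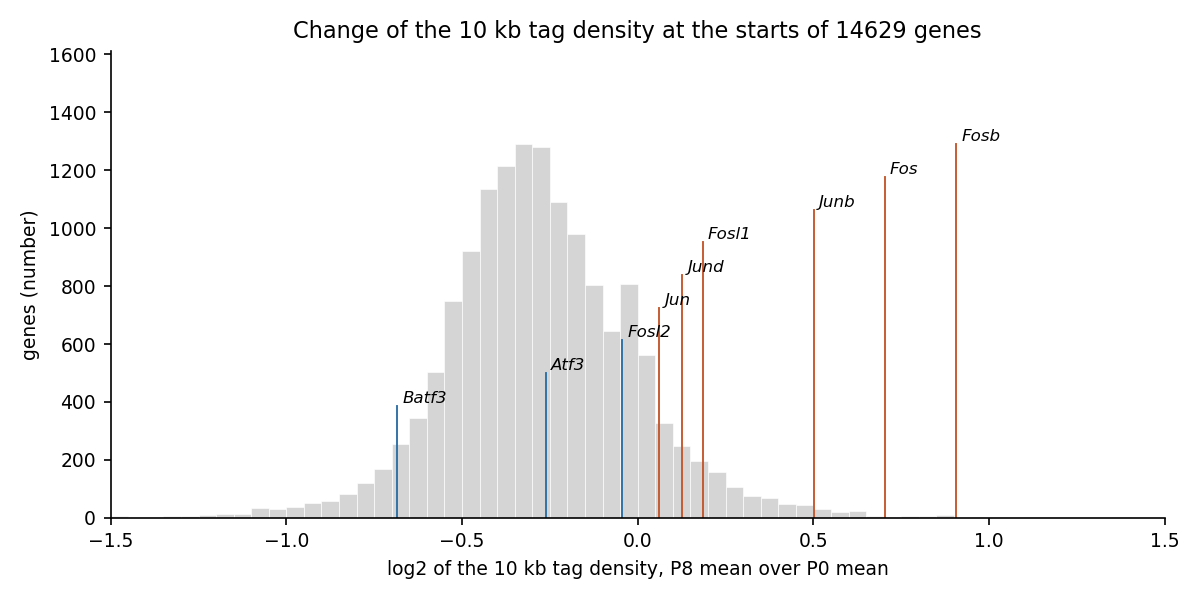
Number of genes (y axis) by the log2 change of the 10 kb tag density from the P0 mean to the P8 mean (x axis), with values beyond the axis in the end bins. Vertical lines mark the members (their height serves the labels and their colour the sign), and Fos, Fosb and Junb lie in the upper tail while Batf3 lies in the lower one.

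By default the caller keeps a tag once per position and strand, and no pileup exceeded 146, which is 2 tags at each of 73 positions. This ceiling holds down dense regions, and more so in the deeper P0 libraries. A correction from the share of positions filled at the highest summit within 5 kb, applied to both passages, left 3 members higher at P8 (Fos, Fosb, Junb), against 4.74% of genes, with differences of 1.55-, 1.69- and 1.33-fold. When the P0 libraries alone were corrected, which is the least favourable case for P8, Fosb was the only member left, against 2.62% of genes, with a 1.41-fold difference. Fos and Junb then overlapped between passages. Jund, Jun and Fosl2 were in this case lower in both P8 libraries than in both P0 libraries, with ratios of 0.869, 0.729 and 0.742. The share of all genes that were lower in this case was not computed. With both passages corrected, Jun still overlapped, with a ratio of 0.911.

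Past the 3′ ends of Fos, Fosb, Jun and Jund, the highest peaks were higher at P8. The highest pileup over background within 3 kb past the end of a gene was compared for the 7 of 9 members with a known strand that had a peak there in some library. It was higher in both P8 libraries at 4 of 7 (Fos, Fosb, Jun, Jund), against 7.45% of 5152 genes with such a peak, and lower at 1 (Junb), against 51.2%. Fosl2 and Batf3 overlapped. In this comparison a library without a called peak was counted as 0, for the members and for all genes. This held for P0 library B at Jun and for every library except P0 library B at Batf3. The region past the 3′ end, too, was chosen after the values had been seen.

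At Fosb the site chr7:19301068-19302288, just past the 3′ end, had 29 and 31 tags at P0 and 46 and 51 at P8, although the P8 libraries were shallower. Over background these were 20.5 and 26.2 at P0 and 45.0 and 52.1 at P8, a 2.08-fold difference between 23.3 ± 4.02 and 48.5 ± 5.01 (SD, n = 2 each). The 10 kb density around it was 5.10 and 3.89 at P0, compared with 11.6 and 13.5 at P8. At Fos, 2 sites at 4153 and 4783 bp past the start, just beyond the end of the gene, were open in both P8 libraries only. The first (chr12:85478043-85478322) had 33 and 31 tags at P8, and the second (chr12:85478673-85479106) had 27 and 31. Their fold enrichment was among the lowest of all peaks, because the local background was high. It was 2.94 and 2.44 at the first (percentiles 0.53 and 0.11 of the library's peaks) and 2.66 and 2.76 at the second (0.23 and 0.31). The local background there was 10.3 and 12.4 and 9.30 and 10.8 times the library's background. The nearest P0 peaks, 21.9 and 17.7 times background, lay further on at chr12:85479971-85480213.

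At Jun the site chr4:95048023-95048816 held 40 tags in P0 library A, no peak in P0 library B, and 48 and 47 tags at P8. Over background this was 28.3 in P0 library A, compared with 46.9 and 48.0 at P8. Inside Jun the pattern was the reverse. Both P0 libraries, and neither P8 library, called chr4:95050571-95050909 with 56 and 53 tags and chr4:95051463-95051816 with 48 and 39 tags, and both would have passed at P8 at equal height. At Jund the peak past the end, which overlaps the neighbouring gene Iqcn, was 29.7 and 27.8 at P0, compared with 38.1 and 36.8 at P8, a ratio of 1.3. Closer to the end of Jund, 2921 bp from the start, the P0-only site chr8:70700660-70700819 had 35 and 28 tags.

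Junb, which has Prdx2 close to its 3′ end, was lower at its highest peak there, with 41.7 and 44.7 at P0 and 35.2 and 39.8 at P8. Both P8 libraries held 4 peaks each in that region and both P0 libraries 1, and chr8:84975602-84975873 was a P8-only site with 34 and 37 tags.

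**Figure D4:**
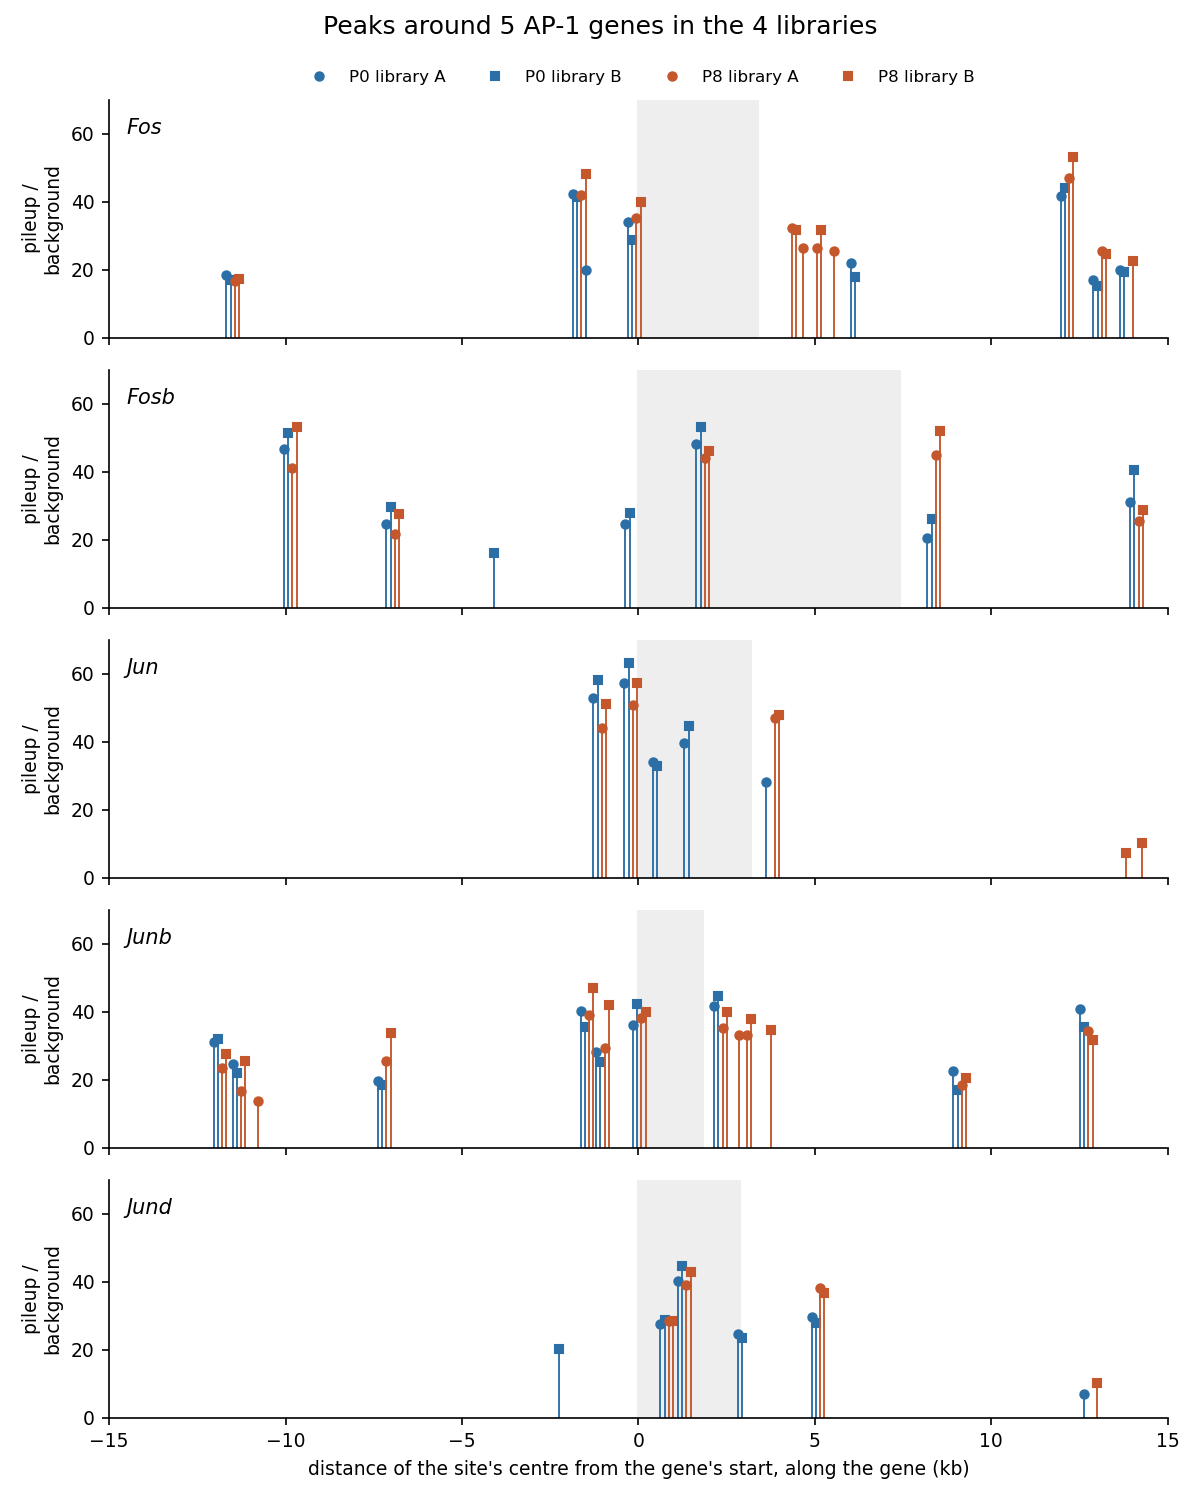
Pileup at the summit divided by the library's background (y axis) against the distance of each site's centre from the start along the gene (x axis, kb), with 1 stem per library. Grey marks the gene. P8 stems without a P0 stem beside them lie just past the end of Fos, and taller P8 stems lie past the ends of Fosb, Jun and Jund.

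**Figure D5:**
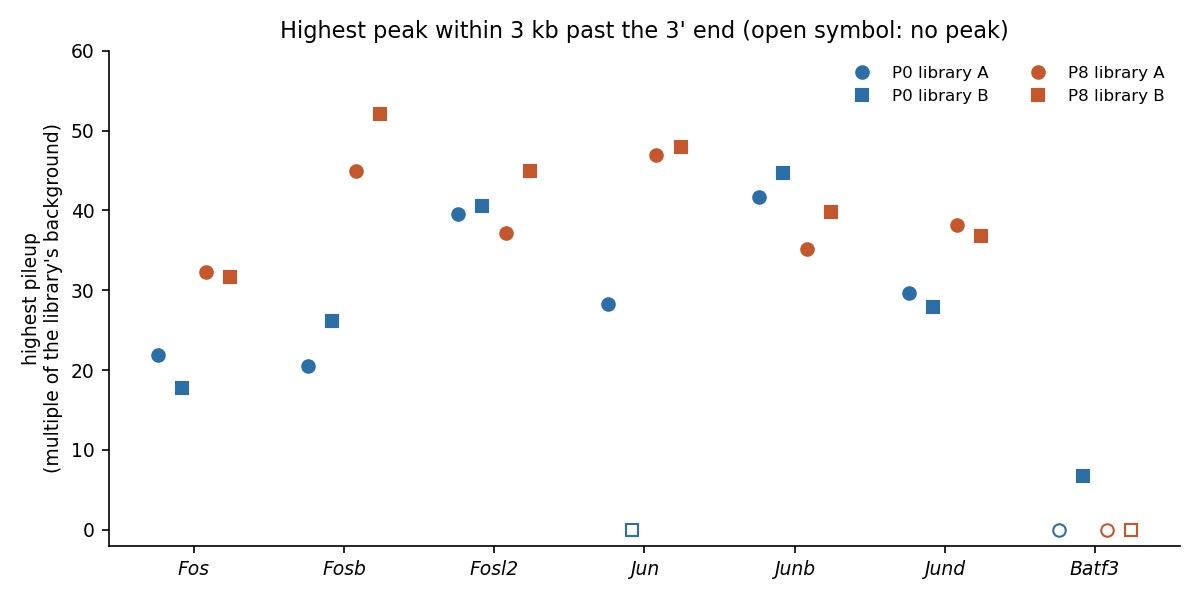
Highest pileup over background within 3 kb past the 3′ end (y axis) for the 7 members with a peak there in some library (x axis), with 1 point per library and open symbols where no peak was called. The P8 points lie above the P0 points at Fos, Fosb, Jun and Jund.

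Over the whole windows, the heights at the 171 shared sites were close to those at all shared sites. Fold enrichment was lower in both P8 libraries at 102 sites (59.6%), against 49.9% of all shared sites, and higher at 17 (9.94%), against 11.6%. The median log2 ratio of P8 to P0 was -0.23, against -0.20 over all shared sites. The pileup over background was lower in both P8 libraries at 81 sites (47.4%), against 50.3%, and higher at 28 (16.4%), against 15.5%. Its median log2 ratio was -0.19, against -0.24 over all shared sites.

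Single distal sites are named next because they were the shared sites that differed most around their gene. By this choice they exceed the medians above, and the share of all sites that differed as much was not computed. Upstream of Fosl2, chr5:32070903-32071759, at position -64713 from the start and nearest to Babam2, had a fold enrichment of 13.5 and 11.9 at P0 and 5.44 and 7.51 at P8 (log2 ratio -0.97). Past Jun, chr4:95008164-95008509 had 9.93 and 10.5 at P0 and 3.96 and 6.06 at P8 (log2 ratio -1.03), with only 7 and 11 tags at P8, at 43713 bp from the start and nearest to Mysm1. A neighbouring site nearest to the same gene, chr4:95001495-95001746, differed in the other direction, with 7.04 and 5.03 at P0 and 7.42 and 10.9 at P8 (log2 ratio 0.60).

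Downstream of Fos, 12936 bp from the start, chr12:85486826-85487099 had a fold enrichment of 3.86 and 3.80 at P0 and 5.28 and 4.25 at P8 (log2 ratio 0.32). This was the largest such difference in favour of P8 among the shared sites around Fos whose passages did not overlap. Upstream of Batf, chr12:85619354-85619927 near Jdp2, which encodes another AP-1 partner, had 6.35 and 7.72 at P0 and 9.60 and 9.41 at P8 (log2 ratio 0.43).

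Atf3 had 3 P0-only sites upstream with Atf3 as the nearest gene. The strongest, chr1:191219663-191219945, lay at position -36330 from the start and had 36 and 34 tags. The others, at positions -33549 and -59057, had 22 and 15 tags and 17 and 17 tags. At the start of Atf3 itself the shared site had 56 and 51 tags at P0 and 31 and 33 at P8, or 39.6 and 43.0 over background at P0 and 30.3 and 33.7 at P8, without overlap. A second shared site, 549 bp inside Atf3, had a higher fold enrichment at P8, with 4.67 and 4.99 at P0 and 5.59 and 5.65 at P8. Its pileup over background overlapped, with 31.8 and 31.2 at P0 and 30.3 and 34.7 at P8. The denominator was smaller at P8, with a local background of 6.24 and 5.59 at P0 and 4.62 and 5.30 at P8.

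Batf had its main open sites inside the gene and not at its start. The site chr12:85698131-85698723, 11411 bp from the start, had a fold enrichment of 13.6 and 16.3 at P0 and 11.3 and 12.7 at P8. The site chr12:85705084-85706144, at 18364 bp, had 66 and 61 tags at P0 and 33 and 35 at P8, with lower values in both P8 libraries also over background.

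Genes that act with AP-1 were described in the same way from lists of its relatives, regulators and targets. Sites open in both P0 libraries only made up 13.5% of 893 sites around 26 other bZIP genes, 14.7% of 634 around 23 MAP kinase genes, 19.2% of 416 around 15 genes of MAP kinase phosphatases and feedback, 11.1% of 655 around 20 other immediate-early genes and 10% of 440 around 20 AP-1 target genes. The share over all sites was 17.1%. Sites open in both P8 libraries only made up 1.01, 1.74, 0.24, 1.07 and 1.82% of the sites around these lists, in the same order, against 1.82% of all sites. Sites open in all 4 libraries made up 40.8, 40.1, 35.8, 42.3 and 40.7%, against 32.4% of all sites. Among bZIP relatives, Atf4 had the most P8-only sites, with 3, and Creb5 the most P0-only sites, with 16. Among the kinases, Map2k6, which activates p38, had 3 P8-only sites, and Map3k4 had 11 P0-only sites. Dusp6, a phosphatase of ERK, had 10 P0-only and 0 P8-only sites. Dusp1 had the only P8-only site of the phosphatase list. Egr2 had 2 P8-only and 0 P0-only sites, and Klf2 and Srf had 7 P0-only sites each. Among the targets, Ccl2 had 2 P8-only sites, as had Mt1 and Mt2, which are neighbours and share sites, and Il11 and Plau had 6 P0-only sites each.

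The 10 kb tag density at the start was higher in both P8 libraries at 6.71% of all genes with a start region and lower at 74.5%. Among 20 other immediate-early genes it was higher at 8 and lower at 4, with a median log2 change of 0.02. It was higher at 6 of 16 AP-1 target genes with a start region and lower at 2, with a median of 0.14. By contrast, it was higher at 1 of 23 bZIP relatives, 1 of 22 kinases and 1 of 15 genes of the phosphatase list, and lower at 17, 16 and 12 of them, with medians of -0.33, -0.30 and -0.27, near the median of -0.29 over all genes. The genes named for this density were chosen after their values were seen. Nr4a1, an immediate-early nuclear receptor gene, had 3.53 and 2.70 at P0 and 6.74 and 8.67 at P8, a 2.47-fold difference that ranked 6 of 14629. Among the targets, the chemokine gene Ccl2 had 2.45 and 2.02 at P0 and 3.74 and 4.17 at P8 (1.77-fold). Ptgs2, which encodes the inducible cyclooxygenase, had 2.97 and 2.71 at P0 and 4.43 and 5.09 at P8 (1.68-fold). Mmp13, the collagenase gene of late chondrocytes, had 1.08 and 1.0 at P0 and 1.26 and 1.30 at P8. The value in P0 library B is the lowest that the caller's background can take, so no fold is given. Dusp1, the 1 gene of its list that was higher, is itself an immediate-early gene and had 8.92 and 7.36 at P0 and 9.11 and 11.6 at P8.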

How the data were processed

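Peak lists of ATAC-seq libraries from mouse chondrocytes at P0 and P8, 2 for each passage, were analysed. Paired-end reads had been mapped by the authors with Bowtie2, and MACS2 with default settings had called peaks library by library. The submitters' processing notes also name mm10, ChIPseeker, DiffBind and HOMER. The authors deposited for every peak a pileup (the signal at the summit in tags, not scaled for depth), a fold enrichment (a ratio to the local background) and a −log10 p. A further table of the authors' comparison of P0 with P8 holds fold changes and FDR and was not used. No column of values per library was left out (0 columns). Read counts per site were not used here, so no count model was fitted.

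Overlapping peaks on 21 chromosomes were joined. Local backgrounds were computed from pileup and fold enrichment. In 100% of 292020 peaks above the minimum they were a whole multiple of 0.0073 tags (within 0.2 of a multiple). This is the step of a tag counted over 73 bp in 10 kb. The 73 bp were inferred from these values and are not the read length that the paper gives. The deposited −log10 p equalled the Poisson value within 0.001 in 100% of 455071 peaks. Pileups were divided by the library's lowest background. Starts and strands came from the RefSeq promoter table (GRCm38.p6), which matched 9 of 10 members, and either gene end served for Fosl1. Passages counted as separated when both values of one lay above both of the other. The share of all sites or genes so separated is given with the main counts. It was not computed for the other settings, apart from the correction for the ceiling. The sites named were, for each member, the most enriched start site, up to 3 sites of each passage only and the shared sites that differed most each way, of which the text gives those it turns on. For each list they were the genes with the most sites of 1 passage only. Members, lists and tests were chosen with earlier results of these data known. Merging, distances and backgrounds were tested on simulated data. Analyses used scipy 1.17.1, pandas 2.3.3, numpy 2.4.6, matplotlib 3.10.9 and Python 3.11.15.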

Additional observations from a re-analysis of the deposited data

How the results depend on the processing

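The comparisons rest on 2 libraries per passage and on called peaks, so that a missing peak is not a measured 0, and depth, which was lower in both P8 libraries, limits what could be called. No paired analysis was possible because the peak names carry no replicate numbers. Counts of sites shrank by construction with smaller windows. Within 50 kb there were 20 sites open in both P0 libraries only, 7 in both P8 libraries only and 107 in all 4, and 12, 2 and 61 sites had a member as nearest gene at any distance. Over the lists, 411 and 36 sites open in P0 and P8 libraries only became 259 and 22 within 50 kb. With peaks of −log10 p of at least 10, 38 sites were open in both P0 libraries only, 3 in both P8 libraries only and 104 in all 4, the ratio of P0 to P8 peaks was 1.32, and 5 members had a peak at a start in every library. At matched depth the site counts were 29, 9 and 169 and the ratio was 1.07. Shares over all sites were not computed under these settings. When the peaks of a site were summed, the median log2 ratio of fold enrichment was -0.16, and with pileup over background corrected for the ceiling, an alternative chosen after seeing the data, it was -0.28. Leaving out a library relaxes each pattern, so that counts of sites or members can by construction only stay or rise. The highest P0-only count came without P0 library B and the highest P8-only count without P8 library A. Leaving out each library in turn gave 36 to 70 P0-only, 9 to 27 P8-only and 171 to 194 shared sites. It gave ratios of 1.02 to 1.20, medians of -0.28 to -0.19, 8 to 9 members with a start peak in every library, 4 to 6 members with a higher 10 kb tag density at P8 and 4 to 5 with a higher pileup past the 3′ end. Relative to the median over all genes, 7 members had a higher 10 kb tag density in both P8 libraries. The share of all genes under that setting was not computed, so the count has no comparison. With both passages corrected for the ceiling, 3 members were higher. With P0 alone corrected 1 was, and the ratio of Jund reversed to 0.869. The cause of these differences was not tested.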
